A study of Mus musculus with 5 samples.

Results

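The genes described here belong to the transforming growth factor beta (TGF-beta) pathway: 3 ligand genes (Tgfb1, Tgfb2 and Inhba), both signalling receptors of TGF-beta (Tgfbr1 and Tgfbr2), the activator Thbs1 and 4 genes known as responders to the pathway (Cyr61, Ctgf, Tgfbi and Fn1). They were taken by gene name from the deposited table, in which all 10 were found among 19221 genes. Cyr61 and Ctgf are the older names of Ccn1 and Ccn2. RNA was measured in the caudate putamen, the mouse striatum, after photothrombotic internal ischaemia, where rose bengal, a dye that clots vessels once it is lit, is excited by a laser at the tip of an optical fibre. The 5 libraries each stand for 1 group, so no difference below has a replicate check and no p-value, SD or standard error could be had.

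All animals were male C57BL/6 mice aged 9 weeks. The 4 stroke libraries came from the right focal region 4 hours, 1 day, 3 days and 10 days after the lesion, with the tissue of 6 animals pooled for each. Every animal received rose bengal at 100 mg/kg and light of 532 nm at 30 mW for 2 min. The 1 sham library pooled punches of the left, contralateral side of the same mice, where the fibre was placed and the laser applied before the dye was given. It is therefore the other hemisphere of animals that carried a stroke, and the sources used here give neither its number of animals nor its mix of times. Every comparison below uses this same sham library, so the comparisons are not independent of each other.

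TGF-beta is secreted in a latent form that is held in the extracellular matrix and freed by integrins, proteases and thrombospondin. The free ligand binds the type II receptor, which recruits and phosphorylates the type I receptor, and this in turn phosphorylates the receptor Smads that enter the nucleus. In injured brain the pathway is known for its part in glial reactivity, in the restraint of inflammation and in the laying down of scar matrix.

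Promoter sequences are shown for Cyr61 and Tgfb1, since these 2 members headed the early and the late part of the time course. RefSeq entries (GRCm38.p6) were found for 7 of the 10 members, as 8 promoters, and Ctgf, Fn1 and Thbs1 were not among them. Each line gives the 250 bases before the start site, 5′ to 3′, with motif matches in capitals. The Cyr61 stretch is chr3:145649986-145650235 on the minus strand and the Tgfb1 stretch is chr7:25686752-25687001 on the plus strand.
Cyr61: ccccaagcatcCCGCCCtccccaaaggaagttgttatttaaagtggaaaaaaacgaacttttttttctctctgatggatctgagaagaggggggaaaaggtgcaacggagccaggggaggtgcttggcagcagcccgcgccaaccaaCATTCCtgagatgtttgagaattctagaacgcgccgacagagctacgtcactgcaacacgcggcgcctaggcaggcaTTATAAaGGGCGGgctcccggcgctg
Tgfb1: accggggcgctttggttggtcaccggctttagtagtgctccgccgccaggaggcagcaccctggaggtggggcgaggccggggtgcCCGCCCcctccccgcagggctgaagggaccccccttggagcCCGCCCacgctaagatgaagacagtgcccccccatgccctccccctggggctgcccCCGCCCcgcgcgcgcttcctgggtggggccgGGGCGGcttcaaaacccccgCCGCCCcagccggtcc

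The motifs searched, on both strands, were CATTCC (bound by TEAD factors), TATAA (TATA box), GGGCGG (GC box), CAGAC (Smad) and TGANTCA (AP-1). The Cyr61 stretch held 1 TEAD motif 103 to 98 bases before the start site, a TATA match on each strand that overlap 26 to 21 bases before it, and 2 GC boxes. The Tgfb1 stretch held 5 GC boxes and no match to the other motifs, and its GC content was 75.2% against 54.8% for Cyr61 and a median of 52.4% over all promoters in the table. Over 32851 promoter stretches of that length, 12.6% held the TEAD motif, 22.8% the TATA motif, 32.7% the GC box, 42.2% the Smad motif and 6.75% the AP-1 motif. A match describes the letters of the stretch and no more.

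Levels are given in RPKM, that is reads divided by gene length and by the library's read total, as the authors deposited them. The reads behind them numbered 42261786 to 48013847 per library, and the members had 19 to 3188 reads each. A log2 fold is log2((stroke RPKM + 1)/(sham RPKM + 1)), which understates the difference of a low gene, and a gene is called higher or lower here once that value reached 1 or -1, that is 2-fold with the pseudocount. A ratio is the plain quotient of 2 RPKM values, with a 95% exact binomial counting interval from reads divided by 2. These intervals cover counting error only and say nothing of the spread between animals. In tissue punches, more cells of a type and more RNA per cell cannot be told apart. As a check of the striatal label, the projection neuron markers Ppp1r1b, Adora2a and Drd2 were at 1019, 146 and 73.8 RPKM in sham.

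At 4 hours and day 1 the matricellular genes Cyr61 and Ctgf were the highest members, and on day 3 and day 10 the ligand Tgfb1 was. Cyr61 and Ctgf were counted as higher than sham at 4 hours, when 2.20% of the 12783 genes analysed were higher and 1.09% lower. On day 1 Cyr61 was the 1 member counted as higher, against 3.33% of genes higher and 1.35% lower. On day 3 the count was 4 members (Tgfb1, Tgfbi, Fn1 and Cyr61), against 9.04% of genes higher and 0.618% lower. Day 10 also had 4 (Tgfb1, Tgfbr2, Tgfbi and Fn1), against 4.20% of genes higher and 0.172% lower. No member was counted as lower at any time. With the pseudocount, a gene under 1 RPKM in sham cannot be counted as lower, even at 0 reads. This held for Tgfb2, Inhba, Tgfbr1, Thbs1 and Tgfbi, so for them the absence of a lower count says nothing.

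The median log2 fold of the 10 members was -0.06 at 4 hours, 0.12 on day 1, 0.57 on day 3 and 0.52 on day 10. Over all genes analysed the medians were 0.28, -0.02, 0.12 and 0.07. The member medians also include Tgfb2, Inhba and Thbs1, which were not among the genes analysed, so the sets are not matched. Genes were analysed where at least 1 library reached 1 RPKM, which 7 members did: Tgfb2, Inhba and Thbs1 stayed under 1 RPKM throughout, Tgfbr1 passed through day 10 alone, and Tgfbi through days 1, 3 and 10. Median-of-ratios scaling divides out a log2 factor of 0.37 at 4 hours, -0.11 on day 1, 0.14 on day 3 and 0.16 on day 10. Over all genes it turns the 281 higher and 139 lower at 4 hours into 78 and 243, and the 426 and 172 of day 1 into 581 and 133. Trimmed mean of M values scaling gave 84 and 241 at 4 hours, and leaving out mitochondrial, predicted and small RNA genes and rescaling the rest gave 78 and 55 there and 310 and 68 on day 1, over the 10345 genes then left.

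**Figure D1:**
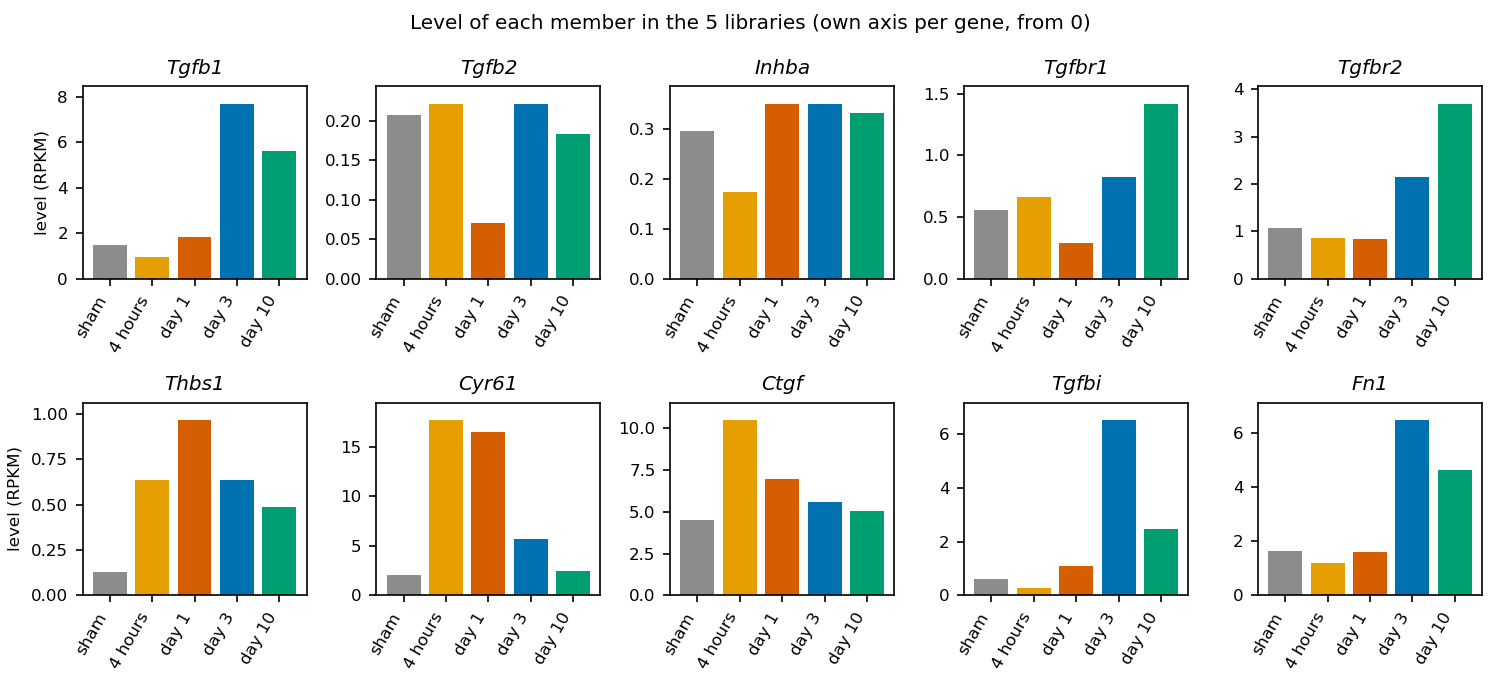
Bars give the level of each of the 10 genes in RPKM (vertical axis, starting at 0 and scaled separately for each gene) in the sham library and at 4 hours, day 1, day 3 and day 10, with 1 library per bar and no replicates. Cyr61 and Ctgf were highest at 4 hours, Thbs1 on day 1, Tgfb1, Tgfbi and Fn1 on day 3, and both receptors on day 10.

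Tgfb1, the ligand made by many immune and glial cells (chr7:25687002-25705077, plus strand, GRCm38), was at 1.51 RPKM in sham, 0.945 at 4 hours, 1.86 on day 1, 7.71 on day 3 and 5.64 on day 10. Day 3 and day 10 thus stood apart from the 3 other libraries, and day 10 was 3.03 times day 1 (2.6 to 3.54), its nearest neighbour in the order. Against sham the log2 folds were -0.37, 0.19, 1.79 and 1.40 in order of time. The day 3 ratio was 5.1 (4.32 to 6.05) and the day 10 ratio 3.73 (3.15 to 4.44), places 310 and 275 among the 12783 genes ordered by fold. At 4 hours the ratio was 0.626 (0.488 to 0.8), below sham under all 3 other scalings as well. From day 1 to day 3 the level was 4.14-fold higher (3.56 to 4.83), and day 10 was at 0.732 of day 3 (0.66 to 0.811).

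The other TGF-beta isoforms were set beside Tgfb1. Tgfb3, the sister ligand that is not among the 10 genes, ranged from 1.26 to 1.6 RPKM over the libraries, with log2 folds between -0.10 and 0.10. The ratio of Tgfb1 to Tgfb3 inside a library was 1.06 (0.83 to 1.36) in sham, 0.59 (0.452 to 0.769) at 4 hours and 1.27 (1.01 to 1.6) on day 1. It was 5.05 (4.13 to 6.23) on day 3 and 4.47 (3.63 to 5.55) on day 10. Such a ratio inside a library does not move with the scaling between libraries. Tgfb1 made up 48.1% of the summed RPKM of the 3 isoforms in sham, 34.1% at 4 hours, 54.8% on day 1, 81.5% on day 3 and 79.6% on day 10, and that sum was 3.14 RPKM in sham and 9.45 on day 3.

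Tgfb2, a ligand known for its part in development (chr1:186622792-186705989, minus strand), was at 0.208 RPKM in sham, 0.222 at 4 hours, 0.0708 on day 1, 0.221 on day 3 and 0.183 on day 10. Day 1 was the low library, at 0.341 of sham (0.144 to 0.737), and among the 4 others the intervals of neighbours in the order all held 1. Its log2 folds were within 0.17 of 0, and the sign of those at 4 hours and day 3 turned under the other scalings. The exons of Tgfb2 share 124 bases with Gm29491 on the opposite strand. The sources used here do not say if counting was by strand, and reads from these 124 bases cannot be assigned.

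Inhba, which encodes the beta A subunit of activin and inhibin (chr13:16011851-16031621, plus strand), was at 0.296 RPKM in sham, 0.174 at 4 hours, 0.351 on day 1, 0.352 on day 3 and 0.332 on day 10. The 4-hour library was lowest, at 0.587 of sham (0.344 to 0.981), and neighbours in the order of the 4 others did not differ beyond counting error. Neither Tgfb2 nor Inhba thus joined Tgfb1 on day 3, where their ratios to sham were 1.06 (0.6 to 1.88) and 1.19 (0.769 to 1.84).

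Tgfbr2 encodes the type II receptor, which binds the ligand first (chr9:116084293-116175360, minus strand). It was at 1.07 RPKM in sham, 0.872 at 4 hours, 0.846 on day 1, 2.16 on day 3 and 3.7 on day 10. The order differed from that of Tgfb1, since the last library was the highest and stood 1.71-fold above day 3 (1.51 to 1.94). The log2 folds were -0.14, -0.16, 0.61 and 1.18, and the day 10 ratio to sham was 3.46 (2.95 to 4.07). Sham, 4 hours and day 1 lay close together, with a day 1 ratio of 0.792 (0.639 to 0.981).

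Tgfbr1 encodes the type I receptor kinase (chr4:47353222-47414931, plus strand). Its level was 0.555 RPKM in sham, 0.659 at 4 hours, 0.287 on day 1, 0.829 on day 3 and 1.42 on day 10. It too was highest on day 10, 2.56 times sham (1.98 to 3.34), and lowest on day 1, at 0.518 of sham (0.35 to 0.757). The log2 folds of 0.09, -0.27, 0.23 and 0.64 stayed under the size limit at every time, and the sign at 4 hours turned under median-of-ratios and trimmed mean scaling. Both receptors were 1.71-fold higher on day 10 than on day 3, with an interval of 1.36 to 2.17 for Tgfbr1.

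The ratio of Tgfbr2 to Tgfbr1 inside a library was 1.92 (1.48 to 2.52) in sham, 1.32 (1.02 to 1.71) at 4 hours, 2.94 (2.09 to 4.22) on day 1, 2.61 (2.11 to 3.24) on day 3 and 2.6 (2.24 to 3.04) on day 10. The type II receptor transcript was thus the more abundant in each library. Ligand and receptor were set against each other in the same way. Tgfb1 was at 1.41 times Tgfbr2 in sham (1.14 to 1.74), 1.08 times at 4 hours (0.843 to 1.39), 2.2 times on day 1 (1.79 to 2.72), 3.56 times on day 3 (3.15 to 4.04) and 1.52 times on day 10 (1.37 to 1.69). The ratio on day 10 was near that in sham, although both genes were over 3-fold higher than sham at that time.

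**Figure D2:**
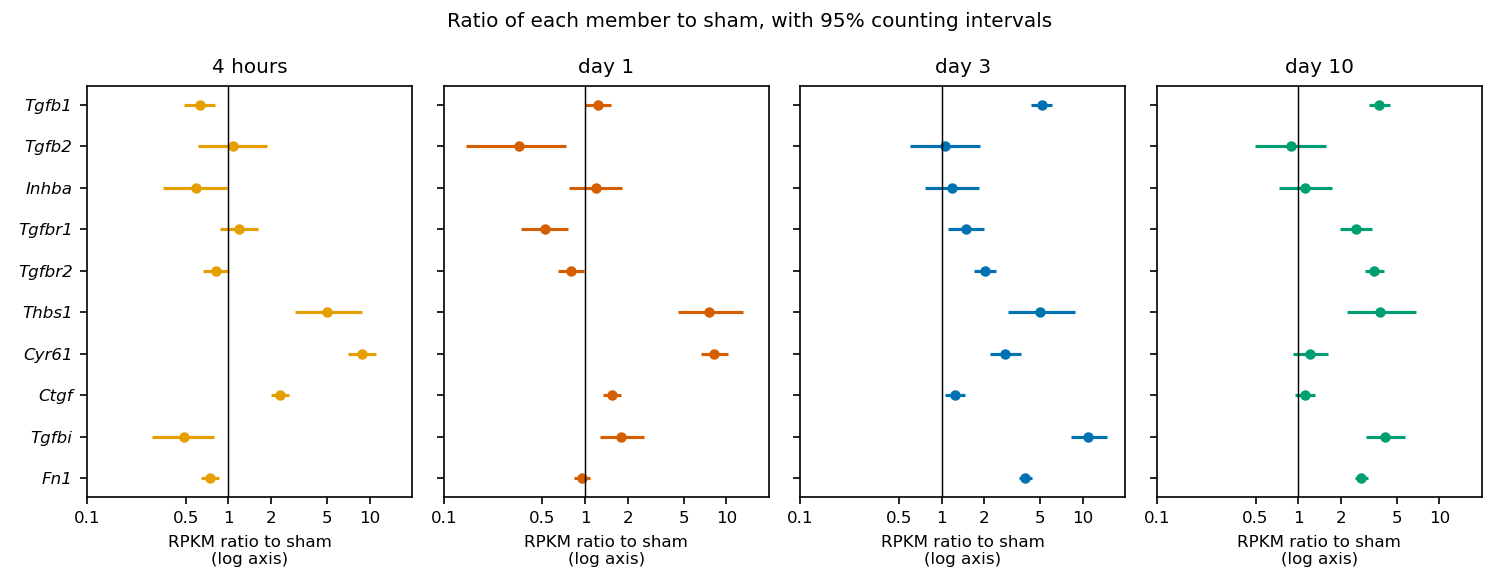
Points give the RPKM ratio of each gene to sham at each time on a logarithmic horizontal axis, and bars give 95% counting intervals, with a line at 1. At 4 hours Cyr61 (8.76), Thbs1 (4.97) and Ctgf (2.31) lie to the right of the line and Tgfb1, Tgfbi and Fn1 to the left, while on day 3 the ratio of Tgfbi (10.9) is the highest.

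Thbs1 encodes thrombospondin, a matricellular protein that platelets store and that can free TGF-beta from its latent form (chr2:118111876-118127133, plus strand). It was at 0.128 RPKM in sham, 0.638 at 4 hours, 0.967 on day 1, 0.635 on day 3 and 0.487 on day 10. All 4 stroke libraries were above sham, day 1 being highest at 7.54 times (4.57 to 13.2) and day 10 lowest at 3.8 times (2.23 to 6.82). On the log2 scale with the pseudocount the folds were 0.54, 0.80, 0.54 and 0.40, under the size limit, because every level was under 1 RPKM. The exons of Thbs1 share 208 bases with Gm29233 on the opposite strand, which was at 0.158 RPKM in sham and 1.08 at 4 hours. The 6 genes of the platelet list summed to 63.2 RPKM in sham and 82.5 on day 1, with a median log2 fold of 0.13 over the 3 analysed. Of these Pf4 was at 13.7 RPKM on day 1 against 0.679 in sham, Gp1bb at 67 against 61 and Gp9 at 0.637 against 1.09. The part of platelets in the Thbs1 levels was not tested.

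Cyr61 encodes a secreted matricellular protein of the CCN family that is induced by growth factors, stretch and YAP (chr3:145646976-145649981, minus strand). It was at 2.02 RPKM in sham, 17.7 at 4 hours, 16.5 on day 1, 5.7 on day 3 and 2.46 on day 10. The first 2 stroke libraries stood far above the rest and did not differ from each other beyond counting error, at a ratio of 0.935 (0.846 to 1.03). The log2 folds were 2.63, 2.54, 1.15 and 0.20, which placed Cyr61 at place 8 among all genes analysed at 4 hours and at place 29 on day 1. Its ratio to sham was 8.76 (7.05 to 11) at 4 hours and 8.19 (6.59 to 10.3) on day 1, and by day 10 it was 1.22 (0.919 to 1.62). This gene carries the TEAD and TATA motifs printed above.

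Ctgf encodes connective tissue growth factor, the next CCN family protein (chr10:24595442-24598683, plus strand). It was at 4.53 RPKM in sham, 10.5 at 4 hours, 6.99 on day 1, 5.62 on day 3 and 5.07 on day 10. The 4-hour library was the high one, and from there each later library was nearer to sham. The log2 folds were 1.05, 0.53, 0.26 and 0.13, with a 4-hour ratio of 2.31 (2.01 to 2.66). The count of Ctgf at 4 hours depends on the scaling, since its log2 fold was 0.71 under median-of-ratios, 0.73 under trimmed mean scaling and 0.88 without mitochondrial, predicted and small RNA genes. Ctgf shares 665 exon bases with Gm15270 on the opposite strand, which was at 1.83 RPKM in sham and 2.96 at 4 hours.

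The order of the 2 CCN genes differed between libraries. Ctgf was the higher in sham, where the ratio of Cyr61 to Ctgf was 0.446 (0.348 to 0.565). Cyr61 was the higher at 4 hours, at 1.69 (1.53 to 1.87), and on day 1, at 2.36 (2.1 to 2.66). The genes were level on day 3, at 1.01 (0.855 to 1.2), and the day 10 ratio of 0.485 (0.39 to 0.598) was again near that of sham.

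Some markers of other tissue moved with the early group. The choroid plexus and ependyma list, of which 7 of 8 genes were analysed, summed to 82.8 RPKM in sham, 747 at 4 hours, 309 on day 1, 26.7 on day 3 and 9.98 on day 10, with most of the sum from Ttr. In that list 3 genes were counted as higher at 4 hours and 1 on day 1, and none of its genes was at 0 throughout. Foxj1 and Aqp1, of the same list, were instead highest on day 10 (6.47 RPKM against 3.23 in sham, and 2.45 against 0.195). Clic6 was at 2.2 RPKM at 4 hours but at 0.287 on day 1, against 0.739 in sham. The share of gene reads on mitochondrial, predicted and small RNA genes was 41.7% in sham, 33.8% at 4 hours and 41.5% on day 1. Oligodendrocyte genes summed to 1072 RPKM in sham and 1830 at 4 hours, with 2 of 7 counted as higher. On day 1, the low library of Tgfb2 and Tgfbr1, the 8 neuronal genes summed to 626 RPKM against 1295 in sham. Of these 3 were counted as lower. The 4 neutrophil genes found in the table summed to 148 RPKM on day 1 against 11.4 in sham. Most of the day 1 sum came from S100a8 (53) and S100a9 (93.4). Csf3r, of the same list, was at 1.21 RPKM in sham, 1.26 on day 1, 5.19 on day 3 and 8.89 on day 10. The part of any of these in the levels of Cyr61, Ctgf and the other members was not tested.

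Tgfbi, an extracellular matrix protein named for its induction by TGF-beta (chr13:56609523-56639562, plus strand), was at 0.596 RPKM in sham, 0.289 at 4 hours, 1.08 on day 1, 6.53 on day 3 and 2.46 on day 10. No 2 of the 5 libraries were within counting error of each other in this order, which ran from 4 hours through sham, day 1 and day 10 to day 3. The log2 folds were -0.31, 0.38, 2.24 and 1.12. The day 3 ratio of 10.9 (8.19 to 14.9) was the highest of any member at any time, and its fold was at place 170 among all genes. Day 3 was 6.03 times day 1 (4.84 to 7.59), and day 10 was at 0.377 of day 3 (0.32 to 0.441).

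Tgfbi and Tgfb1 were compared inside each library. The ratio of Tgfbi to Tgfb1 was 0.395 (0.283 to 0.543) in sham, 0.305 (0.189 to 0.475) at 4 hours, 0.581 (0.451 to 0.743) on day 1, 0.847 (0.757 to 0.946) on day 3 and 0.436 (0.373 to 0.508) on day 10. The target was thus nearest to its ligand on day 3 and back near the sham ratio on day 10. At 4 hours, when Cyr61 was at 8.76 times sham, Tgfbi was at 0.484 (0.287 to 0.796).

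Fn1 encodes fibronectin, a matrix and plasma glycoprotein (chr1:71585520-71653200, minus strand). It was at 1.65 RPKM in sham, 1.21 at 4 hours, 1.58 on day 1, 6.46 on day 3 and 4.63 on day 10. Day 3 and day 10 were the high libraries, as for Tgfb1, and sham and day 1 did not differ beyond counting error. The log2 folds were -0.26, -0.04, 1.49 and 1.09, and the sign on day 1 turned under median-of-ratios and trimmed mean scaling. The ratio to sham was 0.736 (0.636 to 0.852) at 4 hours, 3.91 (3.52 to 4.36) on day 3 and 2.8 (2.51 to 3.13) on day 10. With median-of-ratios or trimmed mean scaling the day 10 fold was 0.96 or 0.99, just under the size limit. The exons of Fn1 share 292 bases with Apol7d on the opposite strand, which was at 0.213 RPKM in sham and 0.713 on day 3.

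Inside a library Fn1 and Tgfb1 lay near each other. The ratio of Fn1 to Tgfb1 was 1.09 in sham (0.913 to 1.31) and 1.28 at 4 hours (1.03 to 1.61). It then was 0.846 (0.717 to 1.00) on day 1, 0.838 (0.77 to 0.912) on day 3 and 0.82 (0.747 to 0.901) on day 10, a narrow range beside the ratios of the other pairs.

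**Figure D3:**
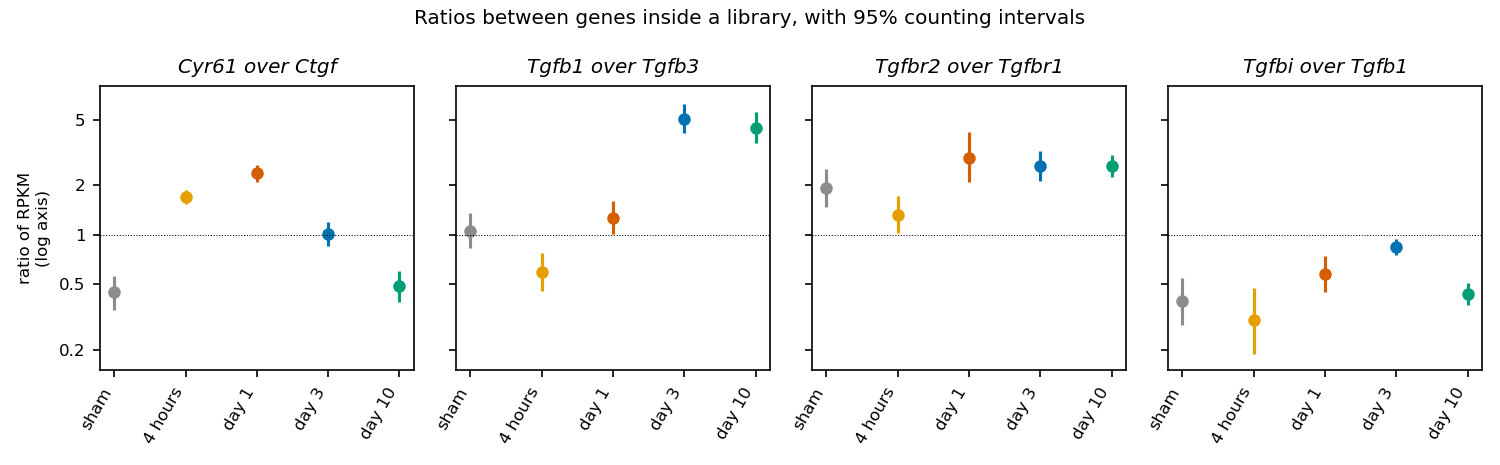
Each panel gives, for the 5 libraries, the RPKM ratio of 1 gene to another of the same library (logarithmic vertical axis), with 95% counting intervals and a dotted line at 1. Cyr61 over Ctgf was highest on day 1 (2.36), Tgfb1 over Tgfb3 on day 3 (5.05) and Tgfbi over Tgfb1 on day 3 (0.847), and Tgfbr2 over Tgfbr1 was above 1 in each library.

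Many markers of myeloid cells moved with the late group. The 8 microglial genes summed to 73.4 RPKM in sham, 89 at 4 hours, 55.4 on day 1, 354 on day 3 and 313 on day 10, and 5 of them were counted as higher on day 3 and 6 on day 10. The monocyte and macrophage list, with 6 of 9 genes analysed, summed to 36.3, 27.3, 101, 359 and 363 RPKM in the same order. In it 3 genes were higher on day 1, 5 on day 3 and 4 on day 10. Most of the day 3 and day 10 sums came from Lyz2 (97.9 and 245) and Cd68 (211 and 81.9). Cd14 was highest on day 1 (42.7 RPKM against 5.89 in sham). Arg1 was at 10.2 RPKM on day 3 and at 0.0841 on day 10, against 0.16 in sham. The 7 astrocyte genes summed to 166 RPKM in sham and 562 on day 3, most of it from Gfap (102 and 509 RPKM). The median log2 fold of that list on day 3 was -0.16, with 2 genes counted as higher and Slc1a2, Slc1a3, Gja1 and Sox9 below sham. Endothelial genes summed to 26.3 and 50.9 RPKM, most of it from Cldn5 (22.1 and 45.7), with a median of 0.33 over the 3 of 8 genes analysed. In the fibroblast and meninges list 2 of 5 genes analysed, Col1a1 and Col3a1, were counted as higher on day 10. Those 2 genes, Col1a2 and Dcn reached 1 RPKM in the day 10 library alone, so they were analysed because they were high there. The part of these cell types in the levels of Tgfb1, Tgfbi, Fn1 and the receptors was not tested.

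The genes whose time course was most like that of each member were named by Pearson's r of log2(RPKM + 1) over the 5 libraries, among 430 or 431 genes of at least 5 RPKM and an at least 4-fold range. For Tgfb1 they were Fes (0.999), Gpsm3 (0.998) and Fermt3 (0.998), and 104 genes were at 0.95 or more. Those of Fn1 were Tmem106a (0.998), Fermt3 (0.998) and Lgals9 (0.997), with 96 genes at 0.95 or more, and those of Tgfbi were Ftl1-ps2 (0.999), Npl (0.998) and Gm15590 (0.998), with 66. The early pattern was rarer among these genes. Cyr61 had 5 genes at 0.95 or more, led by the small RNA gene Gm25789 (0.984) and the mitochondrial ND3 (0.971) and Gm28438 (0.970), and Ctgf had 2, 1500015O10Rik (0.958) and Npas4 (0.958), followed by Cyr61 (0.898). With 5 points that share their sham library and their totals these values only describe.

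The rest of the pathway was read from 9 lists, counted without the 10 members. The ligand list had 9 further genes analysed, among them Bmp1, which encodes a proteinase and not a ligand and was not counted at any time. Of these Gdf15, a ligand induced by cell stress, was counted as higher on day 1 and day 10. Gdf10 was counted as lower on day 1. Gdf15 was at 0.264 RPKM in sham, 0.611 at 4 hours, 4.9 on day 1, 1.47 on day 3 and 4.58 on day 10 (log2 folds 0.35, 2.22, 0.97 and 2.14), and so had 2 high libraries with a lower one between them. Gdf10 was at 2.65, 4.83, 0.525, 1.1 and 1.75 RPKM in the same order. None of 5 further receptors was counted at any time. Among them Acvr1b, an activin receptor, had its high library at 4 hours (17.3 RPKM against 9.85 in sham), and endoglin, a co-receptor of endothelium encoded by Eng, on day 3 (8 against 4.45).

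Genes that bind or free latent TGF-beta formed the next list. Of 13 analysed, 1 was counted as higher at 4 hours, 1 on day 1, 6 on day 3 and 3 on day 10, and 1 as lower on day 1. Emilin1, counted on day 3, reached 1 RPKM in that library alone (1.6). Mmp2, counted on day 10, did so on day 3 and day 10 only (1.51 and 1.95). Both were thus analysed because they were high there. The median log2 fold was 0.98 on day 3, against 0.12 over all genes. Itgb5, an integrin subunit, was at 12.2 RPKM in sham, 10.1 at 4 hours, 5.01 on day 1, 49.2 on day 3 and 49.7 on day 10. Plau, the urokinase gene, was at 0.508, 0.653, 2.29, 8.37 and 3.4 RPKM, and Nrros, which anchors latent Tgfb1 on microglia, at 1.05, 1.84, 1.61, 4.44 and 2.82. The list's day 3 count was 5 under median-of-ratios and trimmed mean scaling and 4 without mitochondrial, predicted and small RNA genes, and Plat, the 1 gene higher at 4 hours, was under the limit in the first 2 of these.

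Of 6 Smads and partners and 10 inhibitors, intracellular and secreted, none was counted at any time, which in lists this short is near the share over all genes (9.04% higher on day 3). Both medians were below 0 on day 3, at log2 folds of -0.24 and -0.20. Smad1 was highest at 4 hours (2.3 RPKM against 0.91 in sham), as were Smad3 (6.56 against 4.34), Smad4 (3.49 against 2.06) and the inhibitor Pmepa1 (13.2 against 8.14). These levels are as deposited, where the 4-hour median log2 fold over all genes was 0.28. Under median-of-ratios scaling the 4-hour median of the Smad list went from 0.33 to 0.06. That of the inhibitor list went from 0.34 to 0.12. Dcn, which encodes the TGF-beta binding proteoglycan decorin, was highest on day 10 (1.38 against 0.214), and the repressor Tgif2 on day 3 (1.58 against 0.441). Their plain ratios to sham there were 6.45 (4.32 to 9.96) and 3.58 (2.48 to 5.29), and only the pseudocount kept them under the limit. The lists were not recounted with a smaller pseudocount, so a count of 0 does not mean that no gene differed.

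Of 18 further TGF-beta target genes, 1 was counted as higher and 1 as lower at 4 hours. Counted as higher were 6 on day 1, 6 on day 3 and 4 on day 10. Over all genes 2.20% were higher and 1.09% lower at 4 hours, and 3.33%, 9.04% and 4.20% were higher at the later times. Col1a1 and Col3a1, counted on day 10, reached 1 RPKM in that library alone. Smad7, Skil and Pmepa1, of the same list, were below sham on day 1 without being counted, at ratios of 0.644, 0.56 and 0.513. On day 3 they were at 0.704, 0.912 (0.773 to 1.08) and 0.772. Vim, an intermediate filament gene of reactive glia, was at 5.9 RPKM in sham, 3.51 at 4 hours, 13.1 on day 1, 107 on day 3 and 29.3 on day 10, an order like that of Tgfbi. Timp1, a metalloproteinase inhibitor, was at 11.1, 0.368, 60.4, 100 and 24.6 RPKM, and was the gene counted as lower at 4 hours. Under median-of-ratios and trimmed mean scaling the 4-hour counts were 0 higher and 2 lower. Under each of the 3 other scalings the count of genes higher stayed at 6 on day 1 and was 5 on day 3 and 3 on day 10. Tagln, an actin-binding gene of contractile cells, was at 6.44, 9.06, 30.6, 50.6 and 7.35 RPKM, and was near sham on day 10, where Tgfbi and Fn1 were not.

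Targets of YAP and of serum response factor were counted as higher in 1, 1, 3 and 1 of 10 genes at the 4 times. At 4 hours, when Cyr61 was at its highest, their median log2 fold was 0.20 as deposited and -0.02 under median-of-ratios scaling, and Fhl2, the 1 gene higher there, was under the limit in each of the 3 other scalings. Flna, an actin cross-linker, was at 2.43 RPKM in sham and 7.89 on day 3. Of 3 further CCN and thrombospondin genes none was counted, and the CCN gene Nov was at 1.14 RPKM in sham and 2.01 at 4 hours.

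Receptors and partners of fibronectin were counted as higher in 3 of 14 genes on day 1, 6 on day 3 and 4 on day 10, and 1 gene as lower on day 1. Spp1, which encodes osteopontin, was at 1.97 RPKM in sham, 1.76 at 4 hours, 6.22 on day 1, 62.2 on day 3 and 30.3 on day 10. Tgm2, which encodes a transglutaminase that links fibronectin, was at 2.93, 1.81, 5.8, 22.7 and 7.26 RPKM. The day 10 count was 2 under each of the 3 other scalings, and the day 3 count was 4, 4 and 3. The 9 lists share genes with each other. As deposited, the share higher on day 3 was 46.2% (latent TGF-beta binding), 42.9% (fibronectin partners), 33.3% (targets) and 30% (YAP and SRF targets). For the ligand, receptor, Smad, inhibitor and CCN and thrombospondin lists the share was 0%, and over all genes it was 9.04%.

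**Figure D4:**
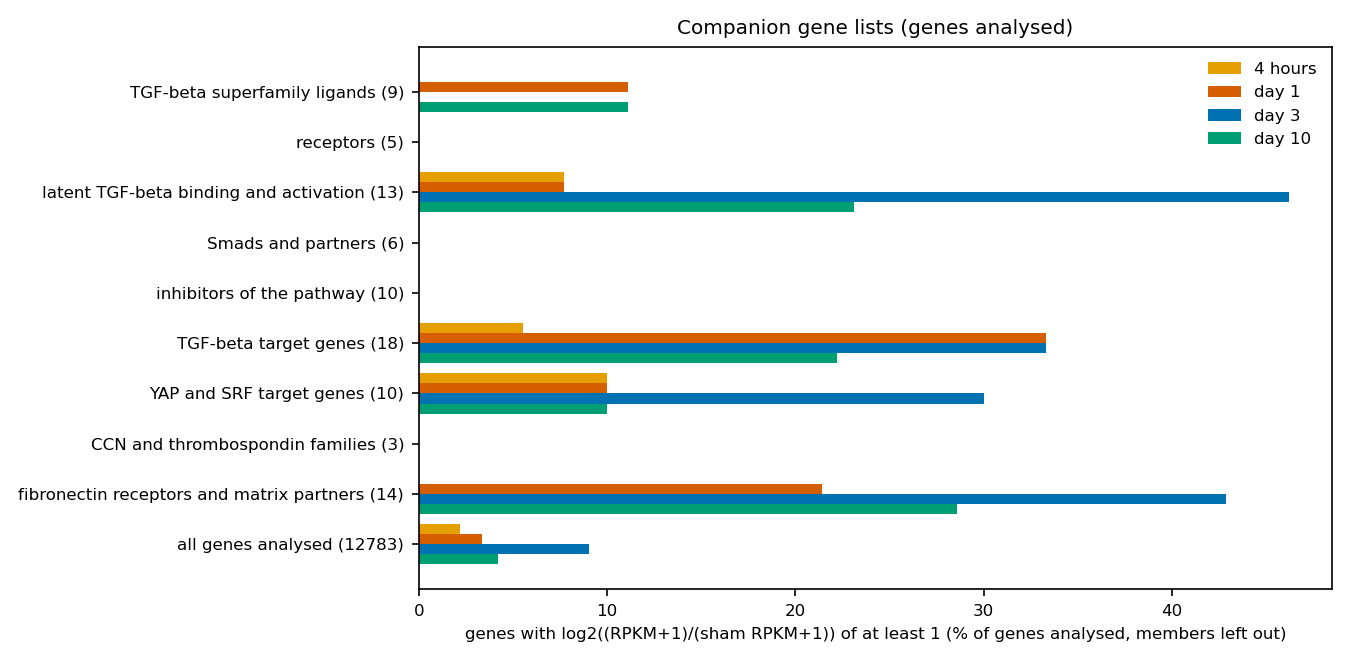
Bars give, for each of the 9 lists and for all 12783 genes analysed, the percentage of genes whose log2 fold with the pseudocount of 1 was at least 1 at each time (horizontal axis, from 0), with the 10 members left out and the number of genes analysed in brackets. The day 3 bars are longest for latent TGF-beta binding and activation (46.2%) and fibronectin partners (42.9%), and receptors, Smads, inhibitors and the CCN and thrombospondin list have no bar.

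The authors' deposited table also gives a GFOLD value, a log2 fold shrunk towards 0 where reads are few. In the authors' deposited table Thbs1 was at 1.70, 2.32 and 1.69 against sham at the first 3 times, and past 1 on day 10 as well. That table gave 1.05 for Tgfbr1 on day 10, also past 1, and 0.64 was its log2 fold with the pseudocount. For Tgfbi it gave -0.47, 0.45, 3.11 and 1.68, and for Tgfb1 -0.39, 0.06, 2.15 and 1.70. The GFOLD values of Tgfb2 and Inhba in the authors' deposited table were 0 on day 3 and day 10.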

How the data were processed

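Total RNA of 5 tissue pools was extracted with Trizol and made into 1 library each, per the labels. The tools named in the submitters' processing notes are HISAT2 2.1.0, Trimmomatic 0.36 and StringTie 1.3.4d, with GRCm38 as the build. Their roles, the annotation version and the use of strand are not stated there. The authors' deposited table holds 1 RPKM value for each gene and library, per the file headers. It also holds, for pairs of libraries, a log2 value shrunk for low reads (GFOLD at the setting 0.01), as the authors deposited it. Since RPKM depends on the total of a library, an abundant transcript moves the value of every other gene.

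The 10 members and the 9 companion and 11 marker lists were chosen with earlier results of these data known, and no count of them is independent evidence. Coordinates and exon overlaps are from GENCODE mouse release 21, which held 19158 of the 19221 identifiers (99.7%). Multiplying RPKM by exon length and library total gave a whole number of reads (tolerance 0.02) for 90.4% to 90.5% of values and for all 50 member values. Even numbers made up 54.5% to 56.5% of the low read numbers, which does not settle if a read pair was counted as 2 reads. As the wider choice, intervals use reads divided by 2, which takes a read pair as 1 count. They are exact conditional binomial intervals at 95%. With 1 library per group no test was made. Scripts used Python 3.11.15, numpy 2.4.6, pandas 2.3.3 and scipy 1.17.1, and were tested on simulated data.

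Named genes were all members, the 3 of largest absolute log2 fold in each companion list, the 3 of highest r with each member of at least 5 RPKM and, in marker lists, the summed level and any gene of at least 1 RPKM. Other list genes (Tgfb3, Bmp1, Plat, Fhl2, Emilin1, Mmp2, Smad7, Skil and those under the other observations) were named after their values were seen. Alternatives were pseudocounts of 0.1 and 0.5, median-of-ratios scaling, trimmed mean of M values scaling (30% of M and 5% of A trimmed), a total without mitochondrial, predicted and small RNA genes, size limits of 1.5 and 2, the 4-hour library as reference, a floor of 5 RPKM and no floor. The authors' GFOLD value was added after seeing the data. A result on 1 further target gene is not reported here.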

Additional observations from a re-analysis of the deposited data

Results flagged for a closer look

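Tgfb1, Tgfbi, Fn1 and Tgfbr2 were below sham at 1 time and counted as higher than sham at another. Their counting intervals left out 1 at both times, and the signs were the same under all 3 other scalings. Tgfb1 was at 0.626 of sham at 4 hours and at 5.1 and 3.73 times sham on day 3 and day 10. Tgfbi was at 0.484 of sham at 4 hours and at 10.9 and 4.12 times sham at the same later times. Fn1 was at 0.736 of sham at 4 hours and at 3.91 and 2.8 times later. Tgfbr2 was at 0.792 of sham on day 1 and at 3.46 times sham on day 10. Tgfbr1 was at 0.518 of sham on day 1 (0.35 to 0.757) and at 2.56 times sham on day 10 (1.98 to 3.34). Its signs at these times also held under the 3 other scalings, but its day 10 log2 fold of 0.64 was under the size limit. The difference between times was not tested, since each is 1 library set against the same sham library.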

How the results depend on the processing

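No library has a replicate, so leave-one-out and paired fits were not possible. Of the members counted as higher at 4 hours 1 (Cyr61) was left, in place of 2, under median-of-ratios scaling, trimmed mean of M values scaling, without mitochondrial, predicted and small RNA genes, and at size limits of 1.5 and 2. On day 1 the count of 1 became 0 with the 4-hour library as reference and 2 with the authors' GFOLD value. On day 3 the count of 4 became 2 at a size limit of 1.5 and 1 at 2, and on day 10 the 4 became 0 at both limits. With the 4-hour library as reference 1 member (Cyr61) was lower on day 3 and 1 on day 10, and the log2 fold of Cyr61 was -0.09 on day 1 and -1.48 on day 3. Levels of a few RPKM and 1 pooled library per time limit all counts.

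Over all genes, the 281 higher at 4 hours became 835 and 456 with pseudocounts of 0.1 and 0.5, 78 and 84 under median-of-ratios and trimmed mean scaling, 78 without mitochondrial, predicted and small RNA genes (10345 genes in place of 12783), and 45 and 16 at size limits of 1.5 and 2. The 139 lower there became 377 with a pseudocount of 0.1, 243 and 241 under the scalings, 55 without those genes, and 65 and 22 at the limits. On day 1 the 426 higher became 771 with a pseudocount of 0.1 and 121 and 54 at the limits. The 172 lower on day 1 became 604 and 314 with the pseudocounts, 68 without those genes, 32 and 8 at the limits, and 728 against 4 hours. On day 3 the 1156 higher became 1780 with a pseudocount of 0.1, 736 without those genes, and 476 and 228 at the limits. The 79 lower on day 3 became 321 and 146 with the pseudocounts, 139 under both scalings, 15 and 1 at the limits, and 885 against 4 hours. On day 10 the 537 higher became 1034 with a pseudocount of 0.1, 354 with a floor of 5 RPKM, and 239 and 109 at the limits. The 22 lower on day 10 became 71 with a pseudocount of 0.1, 9 with the floor of 5 RPKM, 4 without those genes, 11 and 7 at the limits, and 456 against 4 hours.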

Other observations

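The fibrillar collagen genes, known targets of TGF-beta in scar, were highest on day 10. Col1a1 was at 0.343 RPKM in sham, 0.653 on day 3 and 3.38 on day 10, and Col3a1 at 0.093, 0.412 and 2.24. Their day 10 log2 folds were 1.71 and 1.57. Tgfbr1 and Tgfbr2 were also highest in that library. Col1a1, Col3a1 and Tgfbr1 reached 1 RPKM there alone, so they were analysed because they were high in it. A link between the collagens and the receptors was not tested.

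Cdkn1a, a cell cycle inhibitor that TGF-beta and p53 induce, was at 11.8 RPKM in sham, 29.4 at 4 hours, 28.1 on day 1, 24.6 on day 3 and 9.02 on day 10. Of the Id genes, which respond to bone morphogenetic proteins, Id2 was highest on day 1 (62.1 RPKM against 22.5 in sham) and Id3 on day 10 (44.7 against 24.1), and Id3 was lowest at 4 hours (13.3).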
